A study of Mus musculus with 5 samples.

Results

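Wild-type mouse embryonic fibroblasts (WT, 1 library) were compared with all 4 Prep1-hypomorphic fibroblast lines of the series (EV, M, P and MP, 1 library each), which together are the 5 libraries of the series. Mouse embryonic fibroblasts are connective-tissue cells grown out of the embryo. All cells were C57BL/6, came from E14.5 embryos and were at passage 30. The 4 hypomorphic lines carried an allele of reduced Prep1 expression and were labelled as infected with an empty vector (EV), as overexpressing Meis1 (M), as overexpressing Prep1 (P) and as overexpressing both (MP). The genotype label of WT is Prep1 wild-type and no vector is named for it, although the growth text shared by all 5 libraries speaks of hypomorphic embryos throughout. WT was therefore a separate line, and genotype, line of origin and infection cannot be told apart. No label names the vector, its promoter, or whether a line was 1 clone.

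Prep1, encoded by Pknox1, and Meis1 are homeodomain transcription factors of the TALE class. Both bind DNA together with Pbx partners, and the core they recognise contains the hexamer TGACAG. Prep1 is known as a factor needed in the early embryo and as a brake on tumour growth, and Meis1 as a factor that cooperates with Hox proteins and can drive leukaemia. Fibroblasts of low Prep1 are used to study what that balance controls.

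For each of 11867 genes, of 21372 with a symbol of their own, the WT level was set against the range from the lowest to the highest of the 4 lines. A level is FPKM (fragments per kilobase of transcript and per sequencing depth, as the authors estimated it) after each library was scaled so that its 75th percentile was 10 units. Genes entered at 1 unit or more in any library. The distance of WT from the range is log2((WT + 1)/(highest line + 1)) where WT was higher, log2((WT + 1)/(lowest line + 1)) where it was lower, and 0 inside. A gene was called at a distance of 1 or more in size, which is 2-fold on this scale. The scale understates differences of low genes. With 1 library per group no test and no p-value was possible, and the 4 lines are not replicates of one another, so each difference compares these libraries.

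The sequences below show short stretches upstream of 7 called genes. The first 5 are shown because 10 interferon-induced genes lay below the range together. The last 2, Sox2 and Svep1, were among the genes farthest outside the range and also hold TGACAG. They do not stand for the farthest genes as a set. Among those, Gjb2, Gnai1, Gas6, Frzb and Sulf2 held no TGACAG in the same window upstream, while others such as Mmp23 and Xlr held it. All sequences shown are RefSeq sequences of GRCm38.p6, read 5′ to 3′ on the gene's own strand. In the first 5, capitals mark GAAA, any 2 bases, GAAA or its reverse complement, the letters of the element that interferon-activated factors recognise. In the last 2, capitals mark TGACAG.
Bst2: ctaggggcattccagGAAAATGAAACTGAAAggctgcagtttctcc
Gbp3: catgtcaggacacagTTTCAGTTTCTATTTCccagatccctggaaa
Ifit1: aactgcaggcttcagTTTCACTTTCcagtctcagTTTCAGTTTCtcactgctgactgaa
Ifit3: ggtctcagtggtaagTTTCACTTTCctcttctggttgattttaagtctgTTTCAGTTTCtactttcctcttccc
Rsad2: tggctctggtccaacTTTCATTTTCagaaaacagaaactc
Sox2: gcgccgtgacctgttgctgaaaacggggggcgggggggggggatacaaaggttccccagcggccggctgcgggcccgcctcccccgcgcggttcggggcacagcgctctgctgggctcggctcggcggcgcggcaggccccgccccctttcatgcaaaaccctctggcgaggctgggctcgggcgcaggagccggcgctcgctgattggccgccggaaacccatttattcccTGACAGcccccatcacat
Svep1: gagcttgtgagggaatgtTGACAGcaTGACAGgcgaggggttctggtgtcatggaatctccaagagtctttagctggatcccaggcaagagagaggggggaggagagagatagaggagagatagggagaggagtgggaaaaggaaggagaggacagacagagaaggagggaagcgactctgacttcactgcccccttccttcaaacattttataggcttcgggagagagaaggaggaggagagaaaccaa

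The Bst2 stretch is chr8:71537572-71537617 on the minus strand, from 145 to 100 bases before the start of the gene. The Gbp3 stretch is chr3:142559984-142560029 on the plus strand, 60 to 15 bases before the start. The Ifit1 stretch is chr19:34640770-34640828 (plus strand, 119 to 61 bases before the start) and the Ifit3 stretch chr19:34583358-34583431 (plus strand, 171 to 98 bases before the start). The Rsad2 stretch is chr12:26456548-26456587 on the minus strand, 135 to 96 bases before the start. The Sox2 sequence is chr3:34649745-34649994 on the plus strand and the Svep1 sequence chr4:58206597-58206846 on the minus strand, each the 250 bases before the start.

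Pknox1, the targeted gene, stood, in scaled units, at 11 in WT against 2.16 in EV, 3.25 in M, 0.554 in P and 0.569 in MP. The EV level was 19.6% of WT, the M level 29.4%, the P level 5.02% and the MP level 5.16%. After scaling, WT was thus the one library with a high level, as its genotype label says. With values as deposited, where EV and M sit far above the rest, Pknox1 was not called. The libraries labelled P and MP, which should carry added Prep1, held the least, so their Pknox1 goes against their labels, and P and MP stand below for the libraries labelled P and MP. The distance of WT from the range was 1.5 and the range itself spanned 1.45 (log2). The authors' deposited table marks the Pknox1 locus FAIL in the M comparison and OK in the other 3.

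The 20 genes next to Pknox1 in the RefSeq annotation (GRCm38.p6) were checked for a difference shared by the neighbourhood. The 6 that were kept were Ndufv3, Wdr4, U2af1, Sik1, Rrp1b and Notch3, and 0 of them were called. Wdr4, for example, stood at 11.1 in WT and at 9.48, 9.16, 11.3 and 10.3 in EV, M, P and MP. Of the 6, 4 lay inside the range of the lines and 2 outside it by less than 2-fold.

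Scaling carried much of the comparison. The 75th percentile was 12.2 FPKM in WT, 157 in EV, 429 in M, 11.6 in P and 9.63 in MP, and the median log2 ratio of WT to a line over kept genes went from -3.62 (EV), -5.06 (M), 0.02 (P) and 0.24 (MP) as deposited to between -0.07 and -0.03 once scaled. The 99th percentile lay at 17.7 to 21.1 units, close above the 75th, which leaves little room for differences between well-expressed genes. The libraries also differed at the bottom: genes of the olfactory and vomeronasal receptor families (1422 genes, which act in sensory neurons) had a median of 0.282 units in EV and 0.191 in M but 0 in WT, P and MP. Depth is unknown.

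After scaling, more genes lay above the range of the 4 lines than below it at 2-fold or more, while by any amount more lay below. WT lay above all 4 lines by any amount at 3660 genes (30.8% of those compared) and below all 4 at 4903 (41.3%). At 2-fold or more, 509 genes lay above the range (4.29%) and 114 below it (0.961%). With the range set by EV and M, leaving out P and MP, the counts were 650 and 183, and with P and MP as the range 659 and 145. A range of fewer lines lies within that of all 4, so it can add calls but cannot remove any. With values as deposited, where EV and M sit far above the rest, 9 genes lay above and 115 below, and 8 of the 509 and 101 of the 114 were among them. Quantile normalisation, which gives all libraries the same distribution, gave 401 above and 149 below.

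**Figure D1:**
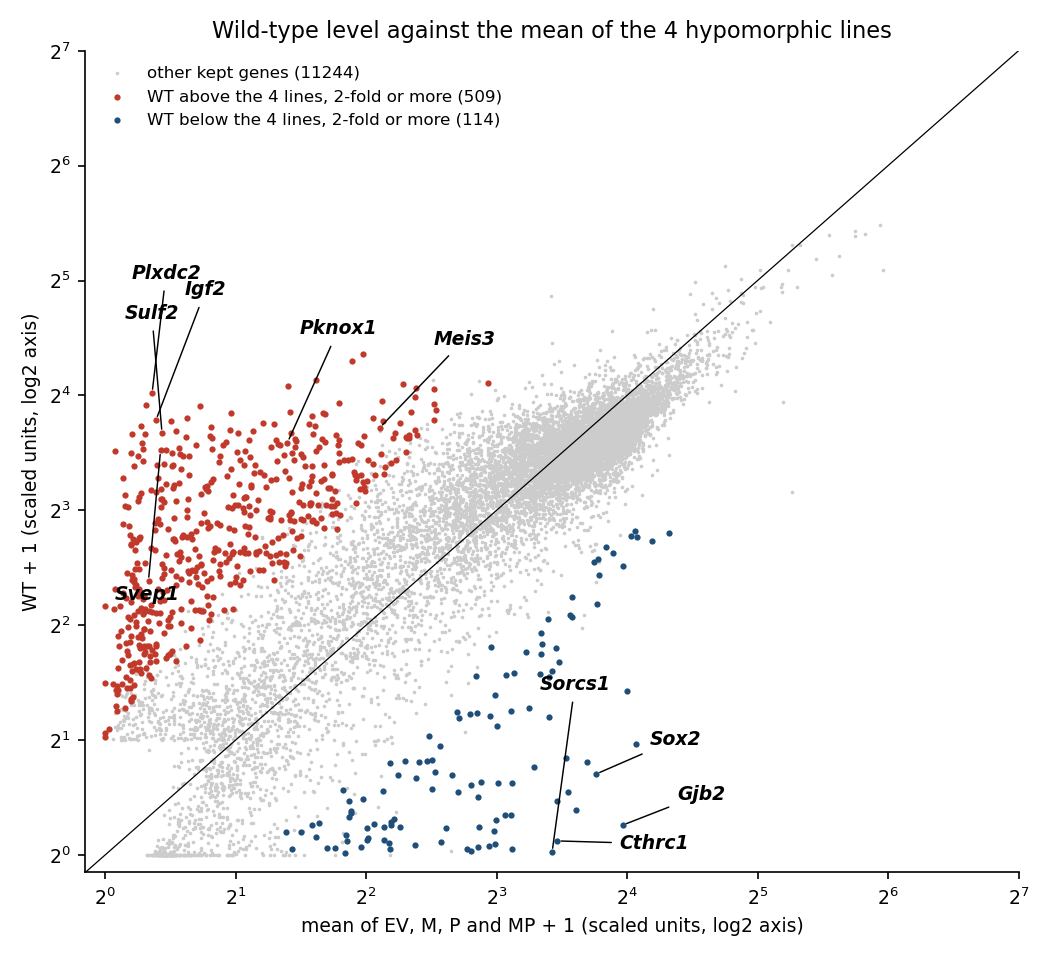
Each point is 1 of 11867 kept genes, with the mean of the 4 hypomorphic lines plus 1 on the x axis and the WT level plus 1 on the y axis, both in scaled units on log2 axes, and the diagonal marks equal levels. The 509 red genes lie above the range of the lines by 2-fold or more and mostly sit near the left edge, where the lines are close to 0; the 114 blue genes lie below it.

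The 509 genes above the range were mostly near silent in the lines. Their median level was 6.29 units in WT and 0.72 for the mean of the lines, and 253 were under 1 unit in each line, 3 of them listed at 0 in all 4. The highest of the 4 lines was EV at 226 of them, P at 155, M at 87 and MP at 41. The 114 genes below the range had a median of 0.55 in WT and 6.28 in the lines, and 63 were at 5 units or more in every line. Of these 114 genes, 73 were under 1 unit in WT. At the loci of the 509, the authors' status in the WT table was OK for 440 and FAIL for 69, and at the loci of the 114 it was OK for 101 and FAIL for 13. Over all 11867 kept genes that table had OK at 9148 and FAIL at 2593. The other tables were less often OK at the 509: 182 in M (151 FAIL), 267 in P (67 FAIL) and 216 in MP (67 FAIL), the rest NOTEST. At the 114 they were OK for 53 in M, 100 in P and 100 in MP, and FAIL at the rest. Over all kept genes the M table had FAIL at 6699.

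The 4 lines also differed from one another. Over all kept genes the range of the 4 lines had a median width of 0.31 (log2), and 600 genes (5.06%) had a width of 1 or more. The median width was 0.42 at the genes above the range and 0.40 at those below, wider than over all kept genes, and a width of 1 or more was found at 5.11% and 7.89% of them. Where every line was under 1 unit, as at 253 of the 509, the pseudocount keeps the width under 1. The calls next to the threshold were Zfpm1 (log2 distance 1.0) and Adal (0.99) on either side of it above the range, and Ccbe1 (-1.04) and Pde8b (-0.99) below.

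**Figure D2:**
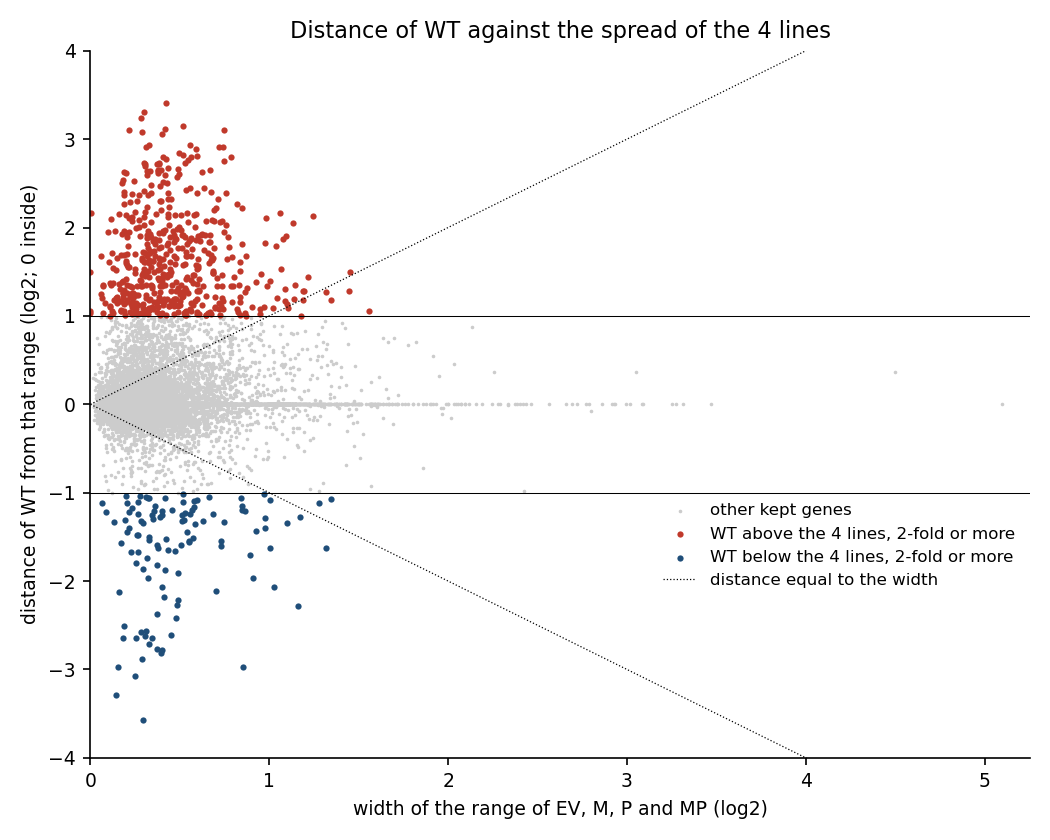
The x axis is the width of the range of EV, M, P and MP and the y axis the distance of WT from that range, both log2, with 0 for WT inside the range. Dotted lines mark a distance equal to the width. Red and blue genes were chosen by their distance, so their place outside the solid lines is no finding; most genes of each colour lie at widths under 1, as do most grey genes.

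WT set against each line in turn gave counts of the same order. WT was 2-fold or more higher than EV at 736 of 11657 genes (6.31%) and lower at 373 (3.2%). Against M the counts were 880 of 11535 (7.63%) and 327 (2.83%). Against P they were 731 of 11404 (6.41%) and 218 (1.91%), and against MP 962 of 11317 (8.5%) and 190 (1.68%). These 4 comparisons share the WT library. EV is the control that the deposited tables use, and of the genes 2-fold from EV, 11 of the 736 higher and 117 of the 373 lower lay inside the range of the 4 lines.

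Genes on in WT and off in every line numbered 94 (0.792%), taking 5 units or more as on and under 1 unit in each line as off. Plxdc2, a plexin-domain membrane protein, stood at 15.2 in WT, 0.523 in EV, 0.242 in M, 0.137 in P and 0.232 in MP and was the farthest above the range of all genes compared, with a log2 distance of 3.41. Gnai1, an inhibitory G-protein alpha subunit, stood at 11.7 in WT against 0.287 in EV, 0.227 in M, 0.045 in P and 0.0532 in MP (3.3). Tnmd, the tendon protein tenomodulin, stood at 10.5 in WT and at 0.215, 0, 0 and 0 in EV, M, P and MP (3.24), with status FAIL in each of the 4 deposited tables. All 4 lines stood under 1 unit at each of these genes and WT above 10.

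Svep1, a large adhesion protein of the matrix, stood at 10.5 in WT, 0.228 in EV, 0.64 in M, 0.0845 in P and 0.417 in MP (2.81). Sulf2, an extracellular sulfatase that trims heparan sulfate and so alters growth factor binding, stood at 11.7 in WT against 0.297 in EV, 0.132 in M, 0.664 in P and 0.32 in MP (2.94). The 2 genes had different highest lines, M for Svep1 and P for Sulf2, with every line far from WT. The authors' deposited table of WT against EV called 11 single-gene loci higher in WT than in EV against 10205 lower, on unscaled values, and Svep1, Sulf2, Plxdc2, Gnai1, Cpxm1, Mn1, Epha3 and Bnc1 were among the 11. The same table called 275 of the 509 genes above the range lower in WT than in EV, the opposite direction to the scaled values.

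Mn1, a transcriptional coactivator, stood at 12.7 in WT and at 0.579, 0.185, 0.502 and 0.409 in EV, M, P and MP (3.12). Rbpms, an RNA-binding protein of smooth muscle and heart, stood at 14 in WT, 0.71 in EV, 0.747 in M, 0.653 in P and 0.504 in MP (3.1). Olfm1, a secreted olfactomedin, stood at 9.77 in WT against 0.496 in EV, 0.141 in M, 0.197 in P and 0.0591 in MP (2.85). All 3 are among the genes under 1 unit in every line, so by that rule their lines lay within 1 unit of one another. Prelid2 (3.08), Adam23 (2.93), Mbnl3 (2.91), Srpx2 (2.91), Cpxm1 (2.82) and Htra3 (2.8) were further genes of the 20 farthest above, given by log2 distance. Their WT levels ran from 8.71 for Adam23 to 11.9 for Cpxm1.

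Genes off in WT and on in every line numbered 24 (0.202%). Gjb2, the gap junction protein connexin 26, stood at 0.197 in WT and at 16.5, 13.8, 13.2 and 15 in EV, M, P and MP and was the farthest below the range of all genes compared (-3.57). Cthrc1, a secreted protein of remodelling matrix, stood at 0.0885 in WT, 10.8 in EV, 9.97 in M, 9.66 in P and 9.74 in MP (-3.29). Sox2, a transcription factor of pluripotent and neural progenitor cells, stood at 0.629 in WT against 12.7 in EV, 12.5 in M, 13.3 in P and 11.8 in MP (-2.97). The range of the lines had a width of 0.30 for Gjb2, 0.14 for Cthrc1 and 0.16 for Sox2 (log2), beside a median of 0.31 over all kept genes. WT lay under 1 unit at all 3 genes. The authors' status was OK in all 4 tables at the loci of these 3 genes.

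Klhl13, a substrate adaptor of a ubiquitin ligase, stood at 0.309 in WT and at 10.9, 11.6, 10.1 and 12.1 in EV, M, P and MP (-3.08). Sorcs1, a sorting receptor of the sortilin family, stood at 0.0159 in WT, 8.52 in EV, 13.4 in M, 6.96 in P and 10.1 in MP (-2.97). Cck, the peptide hormone cholecystokinin, stood at 0.956 in WT against 16.7 in EV, 17.2 in M, 16.4 in P and 12.8 in MP (-2.82). The lines differed among themselves more at Sorcs1, where M was highest and P lowest, than at Klhl13. Trim71, an RNA-binding protein of early embryonic cells, stood at 0.237 in WT and at 5.59, 7.69, 6.41 and 8.17 in EV, M, P and MP (-2.41). Igsf10 (-2.88), Rpl39l (-2.78), Bicd1 (-2.77), Tnfrsf9 (-2.64), Adam3 (-2.63), Glt1d1 (-2.61) and Xlr (-2.51) were also among the 20 farthest below.

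Some of these loci carry the status FAIL in the authors' table of WT against EV, which leaves their values without the authors' test. Among the genes named for the largest distances these were Tnmd, Rbpms, Olfm1 and Mmp23 above the range and Tbx5, Igsf10, Bicd1, Trim71 and Xlr below. Of the called genes named below from the lists, Lef1, Peg3, Runx3, Crispld2, Ephb6, Plin4, Sfrp2 and Ifih1 also carry it, in all 4 tables. Ptch1, Prrx1 and Cdh13 were among the inside-range genes that carry it in all 4. Restricting the genes to loci with status OK in all 4 tables left 4625 to compare, of which 147 lay above the range and 53 below.

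**Figure D3:**
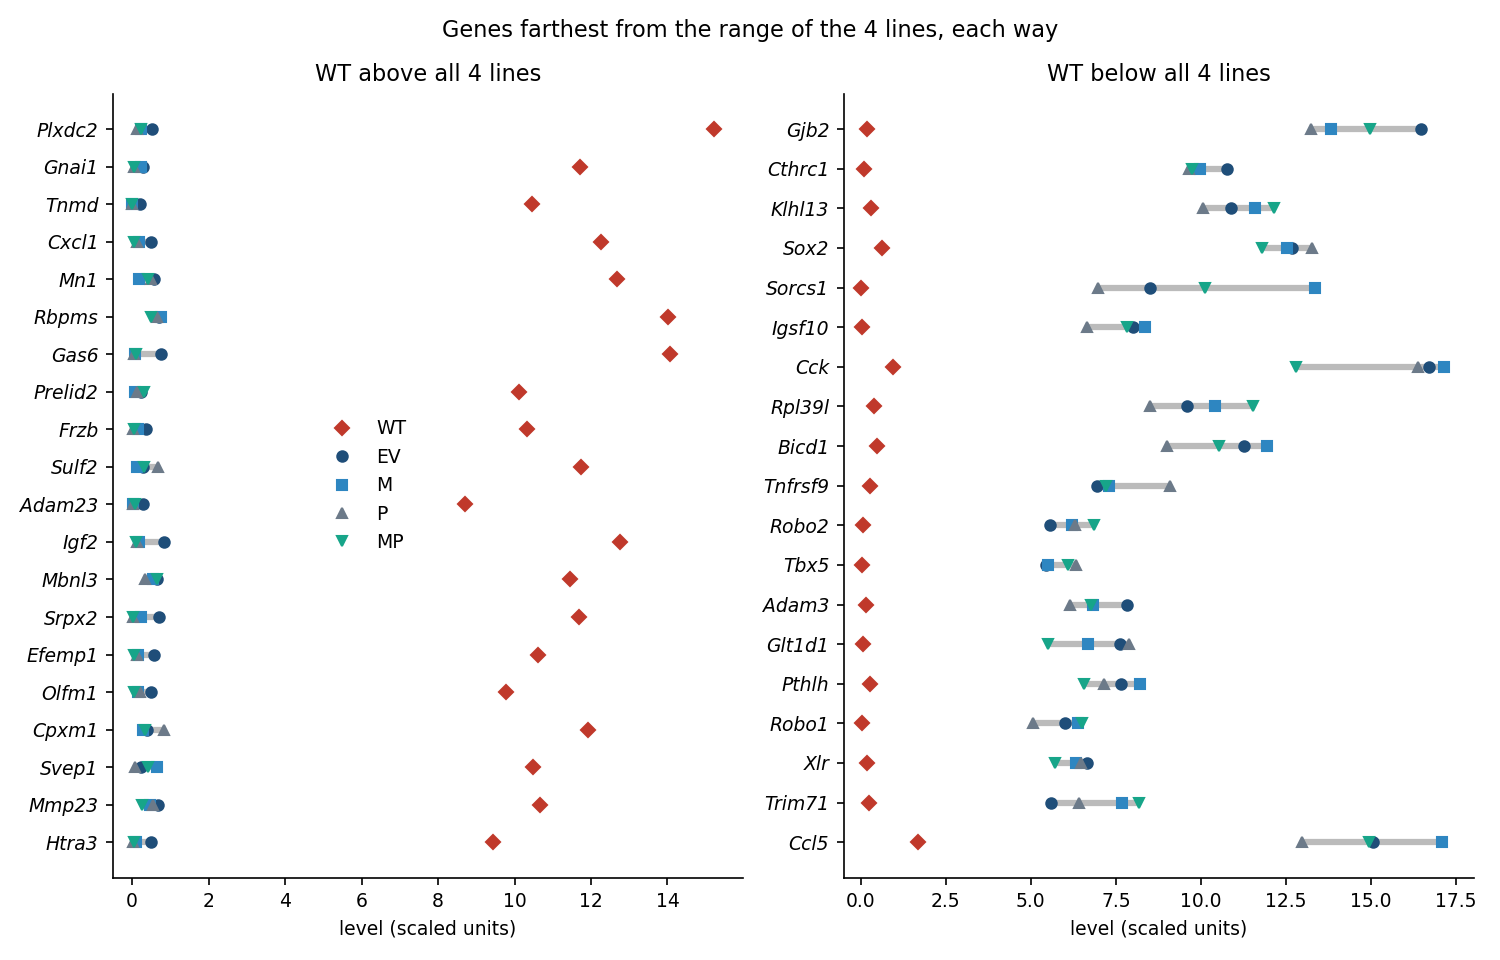
Levels in scaled units (x axis) are shown for the 20 genes farthest above (left) and 19 of the 20 farthest below (right) the range of the 4 hypomorphic lines, with 1 symbol per library and a grey bar for the range of EV, M, P and MP. On the left every line sits under 1 unit and WT at 8.71 units or more; on the right WT sits under 1 unit except at Ccl5, where it is at 1.69.

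Fibroblast markers were present in all 5 libraries, their summed level running from 168 units in P to 181 in EV with WT at 179. Of 17 kept fibroblast markers, 3 lay above the range in WT and 0 below, beside 4.29% and 0.961% of all kept genes. Vim, the intermediate filament vimentin, stood at 11.2 in WT, 15.7 in EV, 12.8 in M, 10.7 in P and 11.5 in MP. Prrx1, a mesenchymal homeobox factor, stood at 18.9 in WT against 18.7 in EV, 20.7 in M, 19.5 in P and 22.9 in MP, and its WT level, like that of Vim, lay inside the range. Fap, the fibroblast activation protease, stood at 3.5 in WT and at 0.134, 0.161, 0.0357 and 0 in EV, M, P and MP (1.95), Islr at 8.09 in WT, 0.533 in EV, 0.424 in M, 0.096 in P and 0.319 in MP (2.57) and the proteoglycan gene Lum at 1.92 in WT against 0.237 in EV, 0.0832 in M, 0.116 in P and 0.042 in MP (1.24), each above the range in WT. By any amount, 6 of the 17 were higher in WT than in all 4 lines and 6 lower. Among the lower was the collagen gene Col3a1, just short of the call and given with the collagens below. Under quantile normalisation Lum was no longer called, and 2 markers lay above and 1 below. With P and MP alone as the range 3 lay above and 1 below.

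Markers of other cell types differed in level, and few were called. Of 11 measured endothelial markers 1 was kept, Flt1, a receptor for vascular endothelial growth factor that lay above the range in WT (14.8 in WT and at 3.26, 4.46, 4.54 and 4.54 in EV, M, P and MP; 1.51). Pecam1, Kdr, Tek and Tie1, which define endothelium, stood under 1 unit in every library. Of 12 epithelial markers 2 were kept and 0 called, with Epcam and Cdh1 under 1 unit everywhere. Of 12 myeloid and lymphoid markers 3 were kept and 0 called, and Ptprc stood under 1 unit in every library. Of 12 germ and pluripotent cell markers 2 were kept, Sox2 and Nanog, and Sox2 alone was called, while Pou5f1 stood at 0.174 in WT, 0.592 in EV, 0.334 in M, 0.224 in P and 0.0798 in MP. Neural and glial markers were present, with 5 of 12 kept, 0 called and a summed level of 41.5 units in WT, 44 in EV, 37 in M, 34.4 in P and 37.5 in MP. That sum came mostly from Nes at 11.4 in WT against 16.7 in EV, 13.8 in M, 12.4 in P and 14.3 in MP, Map2 at 16.2 in WT and at 15.8, 14.9, 11 and 13.2 in EV, M, P and MP and Tubb3 at 12 in WT, 6.5 in EV, 5.05 in M, 9.23 in P and 7.54 in MP, cytoskeletal genes, while Gfap, Rbfox3 and Sox10 were under 1 unit in every library. Of 12 skeletal muscle markers 3 were kept and 0 called, with Myod1 and Myog under 1 unit throughout. The part of these cell types in the results was not tested. In such bulk libraries fewer cells of a type and less RNA per cell cannot be told apart.

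Xist, expressed from the inactive X of female cells, stood at 11.9 in WT against 13 in EV, 14 in M, 12.5 in P and 12.6 in MP, a distance of -0.07. The Y-linked genes Ddx3y, Eif2s3y, Kdm5d, Usp9y, Zfy1, Zfy2 and Sry stood under 1 unit in every library. Uty, also Y-linked, stood at 0.711 in WT and at 1.26, 0.879, 0.753 and 0.463 in EV, M, P and MP, inside the range and above 1 unit in EV alone.

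TALE genes differed in how far WT stood out. Of the 5 kept Meis and Prep genes, Pknox1 included, 2 (Pknox1 and Meis3) lay above the range and 0 below, with a median log2 ratio of WT to the mean of the lines of 0.84, beside -0.07 over all kept genes. Meis3 stood at 12.2 in WT, 3.55 in EV, 2.17 in M, 4.67 in P and 2.79 in MP (1.21), above every line. Meis2 stood at 18.4 in WT against 9.26 in EV, 8.17 in M, 13.4 in P and 8.53 in MP, above the range by 0.43. Meis1 stood at 12.4 in WT and at 8.32, 16.8, 8.86 and 15.4 in EV, M, P and MP, with WT between the 2 lines labelled as carrying added Meis1 and the 2 without it. Pknox2 lay inside the range at 3.76 in WT, 4.15 in EV, 4.07 in M, 2.02 in P and 1.44 in MP. None of the 5 kept Pbx and Tgif genes was called, of which the Pbx genes encode the DNA-binding partners. Over all kept genes 4.29% lay above and 0.961% below, so few calls would be met in lists of 5.

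**Figure D4:**
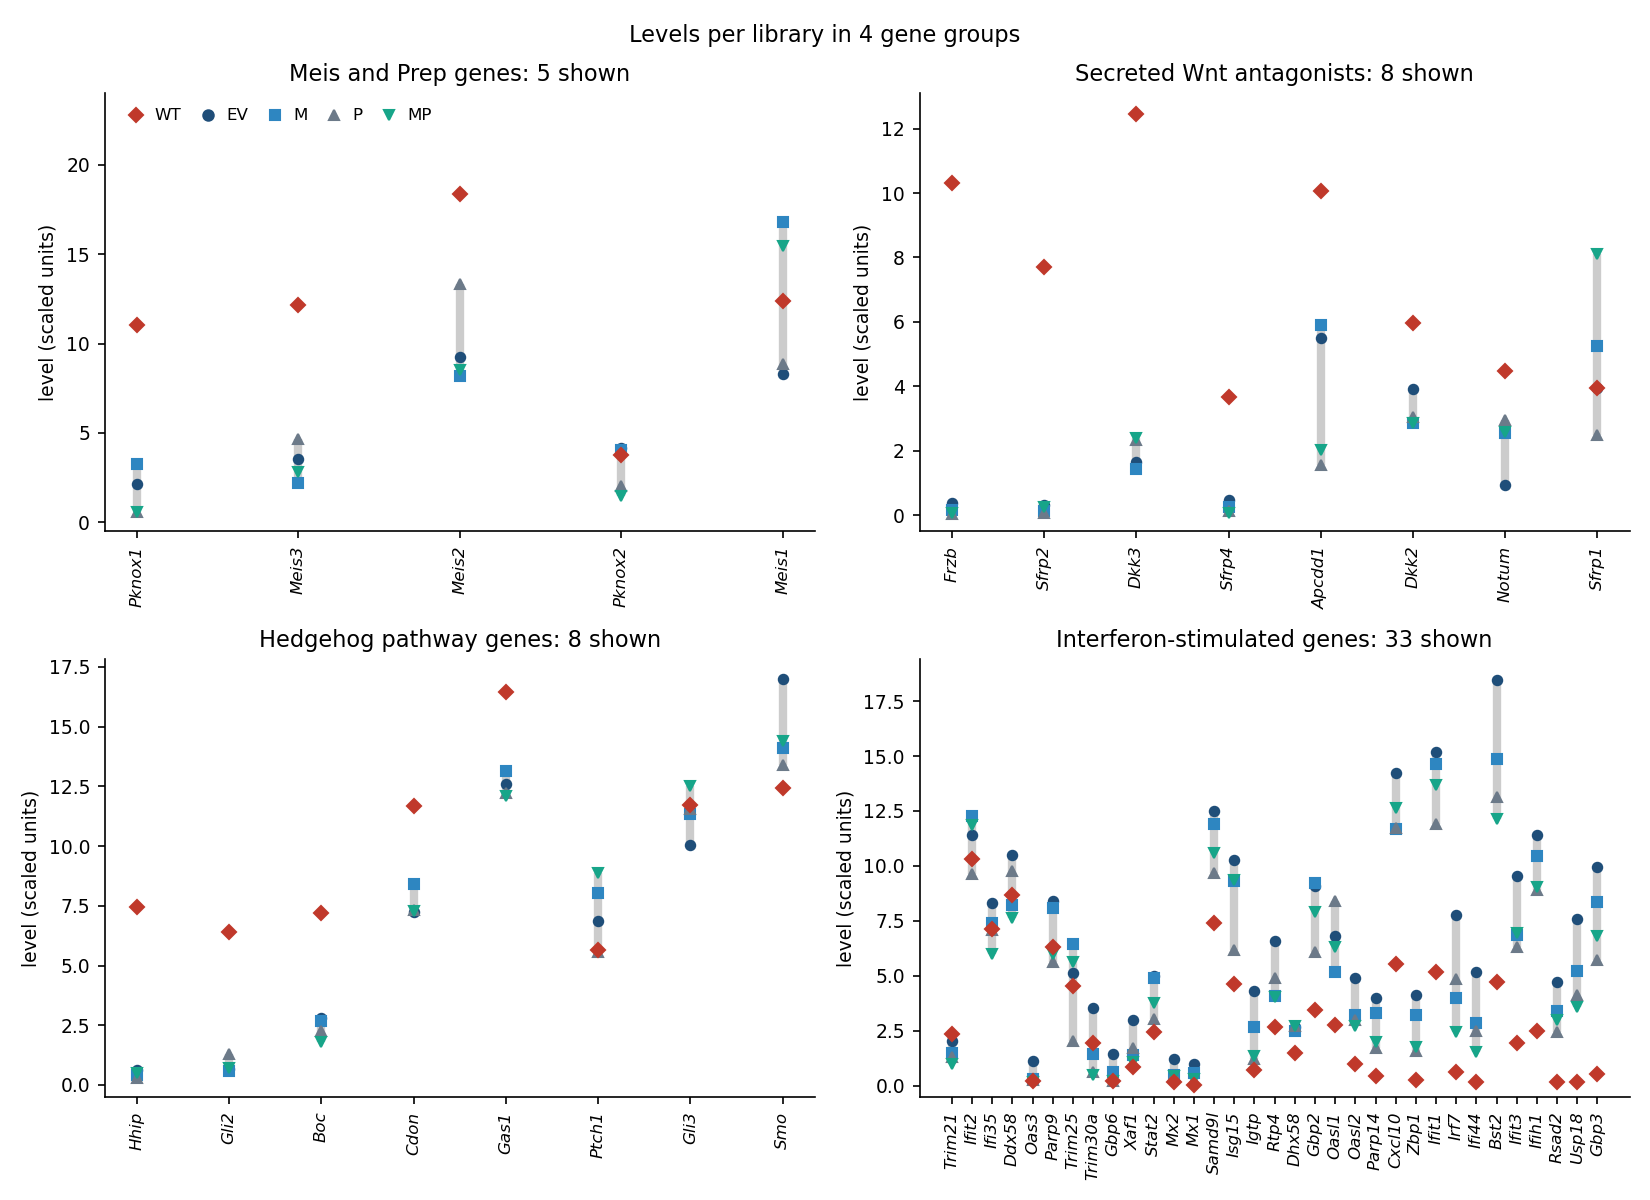
Levels in scaled units (y axis) are shown for kept members of 4 gene groups (33 of the 34 interferon-stimulated genes and all of the other groups), with 1 symbol per library and a grey bar for the range of the 4 hypomorphic lines. WT lies above the bar at 7 of 8 Wnt antagonists and 5 of 8 Hedgehog genes, and below it at 25 interferon-stimulated genes.

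Secreted Wnt antagonists, which bind Wnt ligands or their receptors outside the cell, had the highest share of members above the range among the 44 lists with 5 or more kept members. Of 8 kept, 4 lay above the range and 0 below, against 4.29% of all kept genes above, and the median log2 ratio of WT to the mean of the lines was 1.58. Frzb stood at 10.3 in WT against 0.36 in EV, 0.149 in M, 0.0315 in P and 0.0546 in MP (3.06). Sfrp2 stood at 7.69 in WT and at 0.319, 0.141, 0.0663 and 0.258 in EV, M, P and MP (2.72), with status FAIL in all 4 tables. Dkk3 stood at 12.5 in WT, 1.64 in EV, 1.43 in M, 2.34 in P and 2.4 in MP (1.99). The first pair were near 0 in every line, whereas Dkk3 kept a low level in all 4. Sfrp4 stood at 3.68 in WT against 0.463 in EV, 0.247 in M, 0.11 in P and 0.0592 in MP (1.68). Sfrp1 was the exception in the group: at 3.94 in WT and at 3.94, 5.24, 2.49 and 8.09 in EV, M, P and MP its WT level lay inside the range. With P and MP alone as the range 5 of the 8 were called, and with EV and M alone 4, where fewer than 4 was not possible.

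Other Wnt genes did not all lie on one side. Of 9 kept Wnt ligands 1 was called, Wnt5b, which acts mostly outside the beta-catenin route and stood at 6.64 in WT, 0.424 in EV, 0.436 in M, 0.565 in P and 0.342 in MP (2.29). Of 14 kept Wnt receptors 0 were called. Of 9 kept feedback targets and TCF factors 3 lay above and 1 below, beside 4.29% and 0.961% of all kept genes. The inhibitors Nkd1 (1.17), Nkd2 (1.5) and Dact2 (1.13) were the 3 above. Lef1, a DNA-binding partner of beta-catenin, stood at 2.03 in WT against 8.47 in EV, 8.13 in M, 12 in P and 10.4 in MP (-1.59), lower in WT than in every line. Its status was FAIL in all 4 deposited tables. Under quantile normalisation Dact2 was no longer called.

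Hedgehog genes had 3 of 8 kept members above the range and 0 below, beside 4.29% and 0.961% of all kept genes. Hhip, a membrane protein that binds and sequesters Hedgehog ligands, stood at 7.45 in WT and at 0.617, 0.429, 0.28 and 0.512 in EV, M, P and MP (2.39). Gli2, a transcription factor of the pathway, stood at 6.4 in WT, 0.649 in EV, 0.569 in M, 1.31 in P and 0.729 in MP (1.68). The co-receptor gene Boc stood at 7.21 in WT against 2.78 in EV, 2.66 in M, 2.25 in P and 1.79 in MP (1.12), and under quantile normalisation it was no longer called. The receptor gene Ptch1, a common readout of pathway activity, lay inside the range at 5.64 in WT and at 6.85, 8.06, 5.58 and 8.85 in EV, M, P and MP, and Gli1 was under 1 unit in every library.

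Growth factor genes were called in small numbers, to be read beside the 4.29% above and 0.961% below over all kept genes. Igf2, the imprinted fetal growth factor, stood at 12.8 in WT, 0.825 in EV, 0.185 in M, 0.118 in P and 0.108 in MP (2.91), the 1 of 10 kept IGF genes above the range. Igfbp5, which binds IGFs, lay inside it at 9.14 in WT against 3.41 in EV, 6.69 in M, 13.9 in P and 13.8 in MP, where P and MP were higher than WT and EV and M lower. Gas6, a ligand of the TAM receptor kinases, stood at 14.1 in WT and at 0.761, 0.0653, 0.0486 and 0.107 in EV, M, P and MP (3.1). Both Igf2 and Gas6 were under 1 unit in each line. Of 16 kept imprinted growth genes 1 lay above, Igf2, and 1 below, Peg3, at 0.201 in WT, 2.43 in EV, 1.98 in M, 1.93 in P and 1.67 in MP (-1.15). Peg3 had status FAIL in all 4 deposited tables. H19, which shares its imprinted domain with Igf2, stood at 3.78 in WT against 1.37 in EV, 0.778 in M, 1.36 in P and 1.43 in MP, above the range by 0.98 and so just short of the call.

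Bmp4, a ligand of the bone morphogenetic protein family, stood at 11.5 in WT and at 4.01, 3.07, 4.24 and 4.48 in EV, M, P and MP (1.19), and Fstl3, which binds and inhibits activins, at 5.0 in WT, 0.835 in EV, 0.757 in M, 1.41 in P and 0.711 in MP (1.32). They were the 2 of 12 kept BMP and GDF genes called, beside 4.29% above and 0.961% below over all kept genes. Areg, an EGF-receptor ligand, lay below the range at 4.41 in WT against 13.1 in EV, 11.8 in M, 14.4 in P and 11.9 in MP (-1.24), and Pdgfd below at 6.06 in WT and at 17.3, 17.4, 13.7 and 14.3 in EV, M, P and MP (-1.06). The platelet-derived growth factor receptor gene Pdgfra stood at 11.8 in WT, 2.56 in EV, 6.54 in M, 5.78 in P and 7.72 in MP, above every line by 0.55. Of 8 kept FGF genes and 13 kept TGF-beta genes 0 were called.

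Adipogenic genes had 4 of 15 kept members above the range and 0 below, beside 4.29% and 0.961% of all kept genes. Their median log2 ratio of WT to the mean of the lines was 0.86. Pparg, the nuclear receptor that drives fat cell formation, stood at 13.1 in WT against 1.4 in EV, 1.62 in M, 2.74 in P and 2.22 in MP (1.92). Lpl, a lipase of fat cells, stood at 5.29 in WT and at 0.682, 0.253, 0.11 and 0.155 in EV, M, P and MP (1.9). Ebf2, an adipocyte precursor factor, stood at 1.81 in WT, 0.22 in EV, 0.0686 in M, 0.0344 in P and 0.0423 in MP (1.2) and the lipid droplet gene Plin4 at 5.17 in WT against 0.879 in EV, 0.788 in M, 1.24 in P and 0.668 in MP (1.46). These 4 were low in every line. Other genes of fat cells were not called: Adipoq and Cidec stood under 1 unit in every library, and Fabp4, a fatty acid carrier, lay at 7.76 in WT and at 8.87, 10.7, 10.3 and 9.67 in EV, M, P and MP, lower in WT than in each line by less than 2-fold. With P and MP alone as the range 6 of 15 were called and with EV and M alone 5, where fewer than 4 was not possible.

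Matrix genes outside the collagens had 9 of 45 kept members above the range and 2 below. These counts and those of the collagens stand beside 4.29% above and 0.961% below over all kept genes. The 9 held Svep1, Tnmd and Lum and also Efemp1, a fibulin, at 10.6 in WT, 0.565 in EV, 0.164 in M, 0.12 in P and 0.0397 in MP (2.89). Crispld2 stood at 9.72 in WT against 0.845 in EV, 1.04 in M, 0.922 in P and 0.513 in MP (2.39) and Mfap2, a microfibril protein, at 8.9 in WT and at 1.24, 1.23, 1.65 and 1.19 in EV, M, P and MP (1.9). Dpt (1.81), Lama4 (1.77) and Prelp (1.42) completed them. Postn, the matrix protein periostin, joined Cthrc1 below the range at 5.43 in WT, 13.5 in EV, 13.4 in M, 12.2 in P and 14.2 in MP (-1.04), where WT kept 5.43 units. Of 20 kept collagen chains 2 lay above, the low-level genes Col8a2 (3.9 in WT against 0.277 in EV, 0.106 in M, 0.169 in P and 0.26 in MP; 1.94) and Col2a1 (2.22 in WT and at 0.229, 0.243, 0.344 and 0.418 in EV, M, P and MP; 1.18), and under quantile normalisation Col2a1 was no longer called. Of the 20 chains, 12 were lower in WT than in all 4 lines by any amount, as were 41.3% of all kept genes, and one of the 12 was Col3a1 at 5.46 in WT, 12.5 in EV, 11.6 in M, 12 in P and 12.3 in MP (-0.97).

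Matrix-cutting proteases had 4 of 18 kept members above the range and 0 below. This count and that of the heparan sulfate genes stand beside 4.29% above and 0.961% below over all kept genes. Mmp3, the protease stromelysin, stood at 8.87 in WT against 0.374 in EV, 0.159 in M, 1.29 in P and 0.411 in MP (2.11). Adamts2, which trims procollagen, stood at 16 in WT and at 1.5, 1.49, 1.95 and 1.65 in EV, M, P and MP (2.52). Mmp23 stood at 10.7 in WT, 0.671 in EV, 0.46 in M, 0.538 in P and 0.26 in MP (2.8). Mmp13 was low throughout at 2.52 in WT against 0.236 in EV, 0.164 in M, 0.392 in P and 0.262 in MP (1.34) and lost its call under quantile normalisation. Mmp2, the fibroblast gelatinase, lay inside the range at 13.3 in WT and at 18.9, 17.2, 12.3 and 16.6 in EV, M, P and MP. Of 17 kept heparan sulfate genes Sulf2 alone was called, and the syndecan gene Sdc2 lay inside the range at 22.6 in WT, 24.6 in EV, 24.3 in M, 20.3 in P and 24.5 in MP.

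Gja1, the connexin 43 gene and the usual gap junction gene of fibroblasts, stood at 12 in WT against 16.5 in EV, 15.7 in M, 13.3 in P and 14.9 in MP, lower in WT than in each line by a distance of -0.14. It was thus present in all 5 libraries, unlike Gjb2, which was off in WT. A range of fewer lines cannot remove a call, so the call of Gjb2 with either pair of lines adds nothing.

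Other adhesion and guidance genes split both ways, to be read beside the 4.29% above and 0.961% below over all kept genes. Among 19 kept genes of the integrin list, the integrin-beta-like gene Itgbl1 (2.32) and the integrin gene Itga9 (1.62) lay above the range. Itgb6, an integrin of epithelia that activates latent TGF-beta, lay below at 0.0858 in WT and at 2.38, 2.95, 2.96 and 2.15 in EV, M, P and MP (-1.53). Cdh3, P-cadherin, stood at 11.3 in WT, 1.48 in EV, 1.3 in M, 1.32 in P and 1.82 in MP (2.12) and Pcdh9 at 10.9 in WT against 2.68 in EV, 3.61 in M, 2.05 in P and 3.25 in MP (1.36), the 2 of 13 kept cadherin and desmosome genes above the range. Cdh13, the anchored T-cadherin, was at the highest levels of the list, inside the range at 38.7 in WT and at 43.4, 33.8, 36.9 and 35.3 in EV, M, P and MP.

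Among 17 kept ephrin genes, which signal on contact between cells, 4 lay above and 1 below, beside 4.29% and 0.961% of all kept genes. Epha3 stood at 9.59 in WT, 0.261 in EV, 0.707 in M, 0.109 in P and 0.40 in MP (2.63), Ephb6 at 4.65 in WT against 0.554 in EV, 0.425 in M, 0.193 in P and 0.303 in MP (1.86) and Ephb3 at 9.6 in WT and at 2.24, 2.45, 4.15 and 3.73 in EV, M, P and MP (1.04). Efna2 (1.15) was the ligand gene among them, and Ephb3 and Efna2 were no longer called under quantile normalisation. Epha4 lay below the range at 2.2 in WT, 7.03 in EV, 12 in M, 9.09 in P and 12.5 in MP (-1.33). The Slit receptor genes Robo1 (0.0242 in WT against 6.01 in EV, 6.4 in M, 5.05 in P and 6.52 in MP; -2.56) and Robo2 (0.0514 in WT and at 5.57, 6.21, 6.29 and 6.85 in EV, M, P and MP; -2.64) were both off in WT and on in every line. Sema3e (8.3 in WT, 0.621 in EV, 0.414 in M, 0.222 in P and 0.522 in MP; 2.52) and Ntn1 (12.9 in WT against 2.21 in EV, 3.27 in M, 3.52 in P and 3.64 in MP; 1.59), 2 secreted guidance cues, lay above. The call itself requires the 4 lines to lie on one side of WT at each of these 4 guidance genes.

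Positional identity factors, the homeobox, T-box and forkhead genes that mark where in the body a fibroblast came from, had members called both ways. Of 26 kept, 5 lay above the range and 4 below, beside 4.29% and 0.961% of all kept genes. Alx4, a limb and craniofacial factor, stood at 10.5 in WT and at 0.683, 0.258, 0.335 and 0.254 in EV, M, P and MP (2.78). Foxf1, a factor of gut and lung mesenchyme, stood at 9.86 in WT, 1.65 in EV, 1.28 in M, 3.7 in P and 3.58 in MP (1.21). En1, which marks the ventral limb and a dermal lineage, stood at 7.4 in WT against 1.58 in EV, 1.18 in M, 2.77 in P and 1.69 in MP (1.15). The lines kept a low level of Foxf1 and En1, and were under 1 unit at Alx4. Dlx5 (1.11) and Foxd1 (1.08) were the others above.

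Tbx5, which specifies forelimb and heart, stood at 0.0368 in WT and at 5.46, 5.5, 6.32 and 6.09 in EV, M, P and MP (-2.64), with status FAIL in all 4 tables. Irx1, an Iroquois homeobox factor, stood at 0.701 in WT, 8.58 in EV, 7.24 in M, 10.5 in P and 8.75 in MP (-2.28), and its neighbour in the same gene cluster, Irx2, at 0.0507 in WT against 2.2 in EV, 1.56 in M, 4.02 in P and 3.83 in MP (-1.28). Tbx15, a factor of mesenchymal and fat precursors, stood at 5.99 in WT and at 19.98, 21.1, 15.7 and 19.2 in EV, M, P and MP (-1.26). WT was off at the first 3 and kept about 6 units at Tbx15. Of 8 kept Hox genes 1 was called, Hoxc9, below the range at 0.75 in WT, 4.19 in EV, 3.82 in M, 5.76 in P and 3.38 in MP (-1.32). Of 7 kept Sox genes, Sox13 (0.0919 in WT against 4.61 in EV, 2.4 in M, 3.12 in P and 1.96 in MP; -1.44) lay below with Sox2 and Sox12 (8.16 in WT and at 2.17, 1.29, 3.28 and 2.5 in EV, M, P and MP; 1.1) above, the latter not under quantile normalisation.

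Skeletal and cartilage genes had 4 of 15 kept members above and 1 below, beside 4.29% and 0.961% of all kept genes. Runx3, a Runt factor of cartilage and T cells, stood at 8.2 in WT, 1.23 in EV, 0.627 in M, 2.6 in P and 0.944 in MP (1.36). Pth1r, the receptor for parathyroid hormone and its related peptide, stood at 3.1 in WT against 0.372 in EV, 0.232 in M, 0.189 in P and 0.228 in MP (1.58). Pthlh, which encodes that peptide, stood at 0.27 in WT and at 7.64, 8.21, 7.14 and 6.56 in EV, M, P and MP (-2.57). Receptor and ligand thus lay on opposite sides of the range, with WT high in the receptor and the 4 lines high in the ligand. Scx, a tendon factor, lay inside the range at 10.1 in WT, 10.6 in EV, 9.1 in M, 12.4 in P and 7.9 in MP, although Tnmd, a tendon gene, was among the genes on in WT alone.

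Interferon-stimulated genes, which cells switch on after type I interferon or sensing of foreign nucleic acid, were lower in WT. Of 34 kept, 10 lay below the range and 0 above, against 0.961% of all kept genes below. The median log2 ratio of WT to the mean of the lines was -0.74, beside -0.07 over all kept genes, and 25 of the 34 were lower than all 4 lines by any amount, beside 41.3% of kept genes. Gbp3, an interferon-induced GTPase, stood at 0.546 in WT against 9.93 in EV, 8.34 in M, 5.71 in P and 6.83 in MP (-2.12). Usp18, which removes ISG15 and damps the interferon receptor, stood at 0.175 in WT and at 7.58, 5.21, 4.14 and 3.57 in EV, M, P and MP (-1.96). Rsad2, the antiviral enzyme viperin, stood at 0.187 in WT, 4.72 in EV, 3.4 in M, 2.45 in P and 2.99 in MP (-1.54). All 3 were under 1 unit in WT and highest in EV.

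Ifih1, an RNA sensor, stood at 2.5 in WT against 11.4 in EV, 10.4 in M, 8.89 in P and 9.06 in MP (-1.5), with status FAIL in the WT table. Ifit3 stood at 1.96 in WT and at 9.55, 6.87, 6.33 and 6.97 in EV, M, P and MP (-1.31) and Ifit1 at 5.18 in WT, 15.2 in EV, 14.6 in M, 11.9 in P and 13.7 in MP (-1.06), 2 proteins that bind viral RNA. Bst2, which tethers virus particles to the cell, stood at 4.71 in WT against 18.5 in EV, 14.9 in M, 13.1 in P and 12.1 in MP (-1.2). In these the WT level was low but present. Ifi44 (-1.12), Irf7 (-1.07) and Zbp1 (-1.01) were the other 3 called. Not every member lay below: Ifit2 lay inside the range at 10.3 in WT and at 11.4, 12.3, 9.64 and 11.9 in EV, M, P and MP, as did Ddx58, another RNA sensor, at 8.68 in WT, 10.5 in EV, 8.21 in M, 9.77 in P and 7.62 in MP.

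The count of interferon genes below the range was 10 of 30 with P and MP as the range, 14 of 34 with EV and M, and 12 of 33 under quantile normalisation. With fewer lines as the range this count could not fall below the 10 called with all 4. The sum over the 35 measured members was 98.9 units in WT, 240 in EV, 198 in M, 165 in P and 171 in MP. WT was the lowest and EV the highest of the 5. The labels name an infection, with empty vector, for EV and none for WT, and its part in these values was not tested. Of 11 kept class I antigen presentation genes, also interferon-inducible, 1 was called, the peptide transporter gene Tap2, above the range at 5.33 in WT against 1.41 in EV, 0.523 in M, 0.202 in P and 0.298 in MP (1.39). This list depended on the lines used: its median log2 ratio of WT to the mean of the lines was -0.22 with all 4, -0.37 with EV and M alone, where 1 of 11 lay above and 1 below, and 0.49 with P and MP alone, where 3 of 10 lay above and 0 below. The class I gene H2-K1 lay inside the range at 8.41 in WT and at 19.5, 14.6, 8.33 and 8.98 in EV, M, P and MP, and class I genes share near-identical sequence, so their values are uncertain.

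Promoters of the called genes were searched on both strands for 4 motifs in the window from 250 bases before to 50 after each RefSeq start. GAAA, any 2 bases, GAAA was in 17 of 117 promoters (87 genes) below the range, in 2.17% of 506 promoters (389 genes) above it, in 2.92% of 11920 promoters of kept genes and in 3.44% of all 32851 promoters of the table. Of the 10 interferon genes below the range 8 had a promoter in the table and 5 held this match in the 250 bases before the start, as shown in the sequences of Bst2, Gbp3, Ifit1, Ifit3 and Rsad2. Matches may overlap, as the 2 in Bst2 and the 2 in Gbp3 do. TGACAG was in 28.2% of promoters below, 16.2% above, 16.7% of kept genes and 19.2% of all. In Sox2 it stood once and in Svep1 at 2 places, among the sequences given above.

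TGANTCA, the AP-1 site, was in 13.7% of promoters below, 8.1% above, 5.47% of kept genes and 7.81% of all. TGATTGAC, the letters of a Pbx and Hox or Prep site, was in 0% below, 0.198% above, 0.789% of kept genes and 0.77% of all, and where AG follows it TGACAG is matched as well. These shares describe letters in a window and not binding, and no p-value was computed for them. Jun, an AP-1 subunit, lay inside the range at 12.2 in WT, 12.8 in EV, 11.5 in M, 12.6 in P and 11.2 in MP.

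Chemokine and cytokine genes were called in both directions, 3 of 27 kept above and 3 below, beside 4.29% and 0.961% of all kept genes. Cxcl1, which attracts neutrophils, stood at 12.3 in WT against 0.494 in EV, 0.172 in M, 0.118 in P and 0.0445 in MP (3.15), off in every line. Cxcl5, a related ligand of the same receptor, lay the other way at 0.421 in WT and at 5.16, 3.4, 9.95 and 6.54 in EV, M, P and MP (-1.63). Ccl5, which attracts T cells and is itself induced by interferon, stood at 1.69 in WT, 15.1 in EV, 17.1 in M, 13 in P and 14.9 in MP (-2.38). Lif, the leukaemia inhibitory factor, stood at 3.26 in WT against 9.82 in EV, 10.01 in M, 12.3 in P and 11.3 in MP (-1.34), and Il33, an alarm cytokine, above the range at 5.76 in WT and at 2.17, 0.958, 2.15 and 1.83 in EV, M, P and MP (1.09).

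Signalling through heterotrimeric G proteins had 3 of 18 kept members above the range, beside 4.29% of all kept genes. Besides Gnai1 these were Rgs4, which shortens G-protein signals, at 8.83 in WT, 0.65 in EV, 1.54 in M, 0.515 in P and 0.913 in MP (1.95), and the gamma subunit gene Gng11 at 8.96 in WT against 2.9 in EV, 1.99 in M, 2.93 in P and 1.54 in MP (1.34). Gnaq, another alpha subunit, lay inside the range at 12.4 in WT and at 12, 13.7, 12 and 13.5 in EV, M, P and MP. Notch1 stood at 4.58 in WT, 0.825 in EV, 0.523 in M, 0.527 in P and 0.479 in MP (1.61), the 1 of 8 kept Notch genes called. Lmod1, an actin-filament protein of smooth muscle, stood at 7.24 in WT against 1.91 in EV, 1.36 in M, 2.12 in P and 2.02 in MP (1.4), the 1 of 13 kept contractile genes called.

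**Figure D5:**
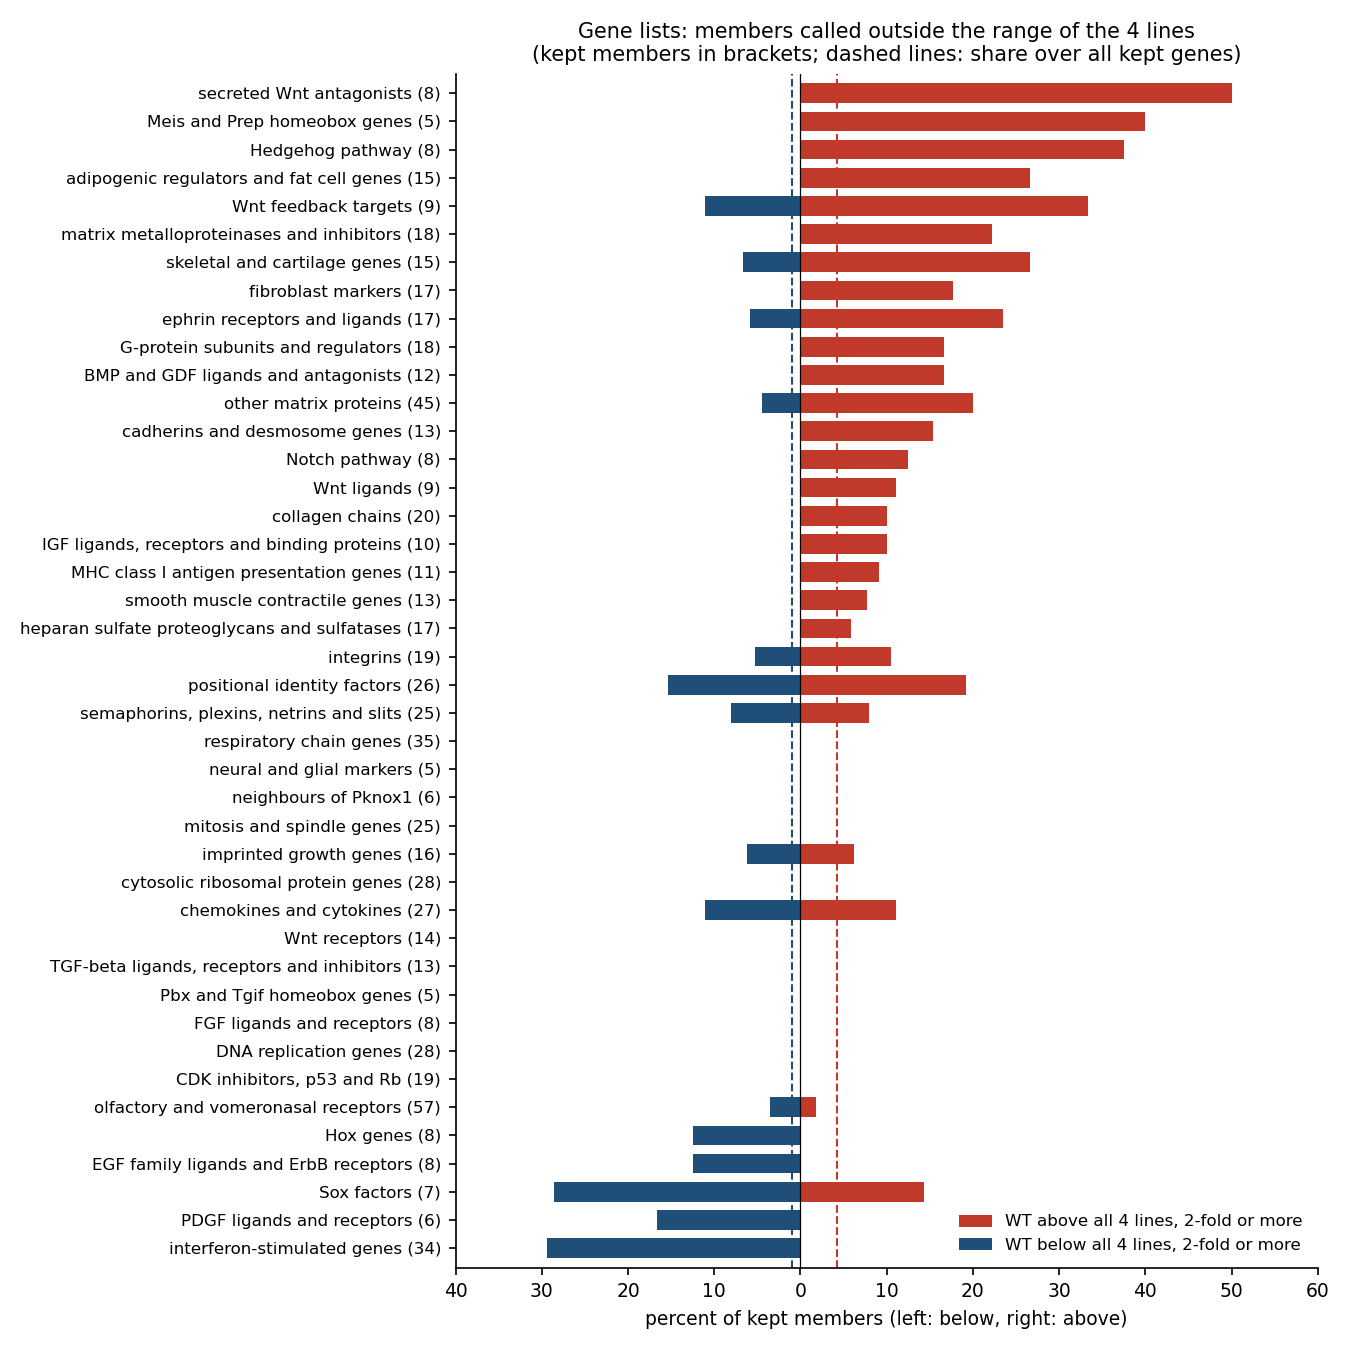
Bars give, for 42 lists (the neighbours of Pknox1 included), the percent of kept members (number in brackets) that WT placed above (red, right) or below (blue, left) the range of the 4 lines by 2-fold or more, and dashed lines mark the shares over all kept genes, 4.29% and 0.961%. Secreted Wnt antagonists reach to 4 of 8 on the right and interferon-stimulated genes to 10 of 34 on the left; a few lists are not shown, so the order on the left is not complete.

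Housekeeping and growth genes were not called, though small differences from the lines were seen. Of 44 lists with 5 or more kept members, 18 had members above the range and none below, 5 the reverse, 11 both and 10 no called member. DNA replication (28 kept), mitosis (25), cytosolic ribosomal proteins (28), respiratory chain (35) and CDK inhibitors with p53 and Rb (19) had 0 called. Over all kept genes 4.29% lay above and 0.961% below, shares that give few calls in lists this short. The narrow top of the scale also leaves little room for differences between well-expressed genes, so 0 called does not show that levels were alike. Small differences leaned one way: 26 of 28 replication genes, 23 of 25 mitosis genes, 32 of 35 respiratory chain genes and 20 of 28 ribosomal protein genes were lower in WT than in all 4 lines by any amount, beside 41.3% of kept genes, with list medians of -0.30, -0.32, -0.35 and -0.27. Over all kept genes the median was -0.07. Scaling did not level the upper end: the 90th percentile was 12.3 units in WT, 14.8 in EV, 14.2 in M, 12.9 in P and 14.3 in MP. Under quantile normalisation the 4 counts were 21 of 28, 19 of 25, 29 of 35 and 20 of 28. The list medians were then -0.20, -0.16, -0.40 and -0.43, beside -0.04 over all kept genes. The part of the scale in this lean was not tested. Cdkn1a, the p53 target that halts the cell cycle, stood at 5.48 in WT and at 3.41, 5.28, 3.0 and 5.09 in EV, M, P and MP, and Trp53 at 12.8 in WT, 19.5 in EV, 17.9 in M, 13.8 in P and 17.3 in MP.

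Genes that part WT from EV need not part WT from the other lines. Sort1, a sorting receptor, stood at 4.2 in WT against 0.859 in EV, 0.573 in M, 5.73 in P and 5.7 in MP, so WT resembled P and MP and not EV and M. Pcsk6, a proprotein convertase, stood at 6.13 in WT and at 1.56, 1.8, 7.42 and 4.79 in EV, M, P and MP with the same division. Igfbp4 stood at 12.1 in WT, 4.95 in EV, 5.04 in M, 12.4 in P and 8.79 in MP, again with P near WT. U90926 (8.57 in WT against 1.65 in EV, 3.63 in M, 8.89 in P and 5.39 in MP) and Atoh8 (7.91 in WT and at 2.83, 3.99, 7.92 and 5.0 in EV, M, P and MP) followed the same order, with P next to WT and EV lowest. With EV and M alone as the range, Sort1, Pcsk6, Igfbp4 and U90926 would be called above.

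In the other direction, Luzp4 stood at 0 in WT, 5.31 in EV, 1.09 in M, 0 in P and 0 in MP, listed at 0 in WT, P and MP. Cd84 stood at 0.837 in WT against 5.3 in EV, 2.77 in M, 0.769 in P and 0.885 in MP and Tspan18 at 5.43 in WT and at 16.2, 10.01, 4.93 and 3.93 in EV, M, P and MP. EV was the highest library at all 3, and P and MP lay with WT. Pi15, a secreted protease inhibitor, stood at 3.25 in WT, 9.73 in EV, 23.3 in M, 1.85 in P and 11.9 in MP, with WT between P and the rest, and leaving out P placed WT below the range at -1.34. Each of these genes would read as a difference between WT and EV alone and lay inside the range once all 4 lines were used.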

How the data were processed

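RNA of 5 fibroblast libraries, 1 per group, was sequenced on an Illumina platform as total RNA, per the labels. The authors deposited FPKM per locus in 4 tables, each setting 1 library against EV; per the submitters' processing notes TopHat, Cufflinks, Cuffdiff and mm9 were used, and versions and annotation are not given in the sources used here. FPKM carry no read numbers, so depth and counting error are unknown.

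Of 61082 loci per table, 37277 had no symbol and 911 joined several genes and were left out; a symbol with several loci (1154 symbols) was given by its highest. EV was read from the M table. Each library was scaled to a 75th percentile of 10 over the 22338 single-gene loci at 1 FPKM or more in any library. Genes at 1 scaled unit or more in any library were kept, and a pseudocount of 1 was added before log2. The files hold no coordinates, so no chromosome was compared. With 1 library per group no test was run. Counts are read against the share of all kept genes called. The computation was checked on simulated data. Python 3.11.15, pandas 2.3.3, numpy 2.4.6 and matplotlib 3.10.9 were used.

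The members and gene lists were chosen with earlier results of these data known. Named genes were, among those at 5 units or more in any library and without provisional, small-RNA or sensory receptor symbols, the 20 farthest on each side; Pknox1, Meis1, Svep1, Sulf2, Gjb2, Sox2 and Cthrc1; up to 5 called and 3 inside-range members per list; up to 5 kept neighbours of Pknox1 on each side; Xist and Y genes; and the 10 with the highest and lowest WT to EV ratio inside the range. Bst2, Ifit1, Ifi44, Irf7, Zbp1, Dpt, Mfap2, Lama4, Prelp, Postn, Col3a1, Gja1, Foxf1, En1, Dlx5, Foxd1, Meis2, H19, Pdgfra, Gli1, Fabp4, Adipoq, Cidec, Il33, Jun, Cdkn1a, Trp53 and the cell type markers at low levels fall outside that rule and were chosen after their values were seen, as were the genes next to the threshold. Alternatives were another pseudocount, filters, scalings, locus choices, status, fold and ranges of fewer lines. A few genes and the lists that turn on them are not reported here.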

Additional observations from a re-analysis of the deposited data

Results flagged for a closer look

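Loci outside the genes compared also held signal in WT alone. Among loci without a gene symbol, 9 stood at 5 units or more in WT and under 1 unit in each of the 4 lines, and 0 the other way round, of 23060 loci that passed the filter. Among loci that join several symbols, 3 were on in WT alone and 1 was off in WT alone, of 819 that passed. These loci enter none of the comparisons above.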

How the results depend on the processing

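The counts of genes above the range (509), below it (114), on in WT alone (94) and off in WT alone (24) were recomputed under the alternatives, the last pair not under the other pseudocount, filters or fold. A pseudocount of 0.1 gave 770 above and 222 below. A filter at 5 units left 324 above, and 4-fold in place of 2-fold left 119 above and 28 below, fewer by construction. Values as deposited gave 9 above and 0 on in WT alone. Loci with status OK in all 4 tables gave 147 above, 53 below, 8 on and 8 off, from fewer genes tested. The range of EV and M alone, chosen after seeing the data, gave 183 below. Leaving out 1 line at a time gave 519 to 595 above, 122 to 133 below, 95 to 110 on and 24 to 27 off. Ranges of fewer lines cannot lose a call, so these counts could only stay or rise. Median scaling, quantile normalisation, P and MP alone, the EV column of the WT table and summed loci moved these 4 counts by less than 1.5 times, as did no filter for the counts above and below. Of 239 named genes, 67 lost their call as deposited, Pknox1, Meis3, Frzb and Igf2 among them, and 8 under quantile normalisation. Reversal of direction was checked for the named genes alone, and 0 reversed under the alternatives run for them. Ranges of fewer lines could not reverse a call. On unscaled values the authors' own comparison with EV called 275 of the 509 lower in WT. No paired analysis was possible because each group has 1 library. The planned comparison of chromosomes was not run, since the files hold no coordinates. Without replicates and with depth unknown, the spread within a group was not measured.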
